A study of Mus musculus with 2 samples.

Results

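The annexins are described here in 2 islet graft samples, by the probe sets whose platform annotation gave 1 gene symbol and whose symbol was that of an annexin on a list of 10 genes, from Anxa1 to Anxa8 with Anxa11 and Anxa13. The rule found 20 probe sets for 9 of the 10 genes, of 45037 probe sets other than controls. For Anxa11, the 1 probe set carried several symbols and was left out. An islet graft from a hyperglycemic male recipient heterozygous for the Akita mutation of Ins2 (Akita graft) was set against an islet graft from a normoglycemic male WT C57BL/6 recipient (WT graft). In both, 50 islets of WT C57BL/6 donors had been placed under the left kidney capsule, and the graft was taken at 6 hours. Total RNA of each sample was hybridized to 1 MOE430 2.0 GeneChip array. In the study's transplantation experiment, Akita recipients given this number of islets without insulin were young adults, and neither an age for the WT recipient nor the number of mice behind a sample is given in the sources used here. The Akita recipients differed from the WT recipients in both genotype and blood glucose, which cannot be told apart.

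Annexins are proteins that bind phospholipid membranes in the presence of calcium, through a conserved core of repeats, while their N-terminal parts differ and bind different partners. Anxa1 was named as a mediator of glucocorticoids and acts on formyl peptide receptors of leukocytes, Anxa2 forms a complex with S100a10 that binds plasminogen activators and plasminogen, and Anxa5 binds the phosphatidylserine that dying cells expose. Others, such as Anxa4 and Anxa13, are known from epithelia, the kidney among them. Damaged islets, kidney tubules, vessels and incoming leukocytes can all contain annexins, and an array of a whole graft does not separate them.

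The sequences before the transcription start are shown for Anxa1, which had the highest ratio among annexin probe sets with both signals reaching their array medians, and for Anxa2 and Anxa7, which differed little between the grafts. They are the 250 bases upstream of the RefSeq start (GRCm38.p6), 5′ to 3′ on the strand of the gene. Those of Anxa1 are at chr19:20390672-20390921 (minus strand), those of Anxa2 at chr9:69453433-69453682 (plus strand), and those of Anxa7, from 1 of its 2 windows, at chr14:20479942-20480191 (minus strand). Capitals mark matches to the motifs searched, on either strand.
Anxa1: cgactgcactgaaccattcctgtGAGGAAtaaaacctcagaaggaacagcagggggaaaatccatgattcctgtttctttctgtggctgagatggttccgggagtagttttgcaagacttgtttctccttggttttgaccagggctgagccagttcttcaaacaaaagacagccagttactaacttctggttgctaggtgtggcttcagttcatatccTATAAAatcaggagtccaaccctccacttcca
Anxa2: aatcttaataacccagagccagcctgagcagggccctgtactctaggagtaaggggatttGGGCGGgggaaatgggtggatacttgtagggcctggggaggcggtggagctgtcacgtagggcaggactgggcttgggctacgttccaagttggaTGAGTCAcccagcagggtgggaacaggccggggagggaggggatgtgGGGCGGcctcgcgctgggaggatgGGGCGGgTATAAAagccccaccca
Anxa7: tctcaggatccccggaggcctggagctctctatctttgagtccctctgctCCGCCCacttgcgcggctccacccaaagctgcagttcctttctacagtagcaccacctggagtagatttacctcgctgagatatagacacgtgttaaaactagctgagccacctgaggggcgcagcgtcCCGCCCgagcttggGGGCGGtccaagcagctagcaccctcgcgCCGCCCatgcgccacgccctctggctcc

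Of the 10 annexins, 7 had a window in the RefSeq promoter table, and Anxa3, Anxa6 and Anxa13 did not. The TATA box was searched as TATAAA, the CCAAT box by the letters of its name, the GC box as GGGCGG, the AP-1 site as TGANTCA, the core bound by PU.1 as GAGGAA and the half-site of the glucocorticoid receptor as TGTTCT, each on both strands. No match overlapped another. TATAAA was found upstream of Anxa1, from 32 to 27 bases before the start, and of Anxa2, from 17 to 12 bases before it, and in 12.4% of all 32851 windows of this length. The window of Anxa1 also held GAGGAA, which 23.3% of all windows held. That of Anxa11 held the same core on the other strand, and GC boxes. That of Anxa2 held 3 GC boxes and TGAGTCA, and 32.7% of all windows held a GC box and 6.75% an AP-1 match. That of Anxa7 held 4 GC boxes and no TATA box. In 1 of the 2 windows of Anxa4, the half-site of the glucocorticoid receptor was found on each strand, and 16.1% of all windows held it. None of the motifs was found for Anxa5 or Anxa8. These matches describe letters only, and the arrays hold no measurement of binding.

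The values are MAS5 signals on a linear scale, an Affymetrix summary of the probes of a probe set. With 2% of probe sets trimmed at each end, the mean was 500.004 on the array of the Akita recipient and 500.004 on that of the WT recipient, so the arrays had the same trimmed mean. The median was 91.5 on the Akita array and 82.9 on the WT array. No detection calls were used, and a probe set was called measured if 1 or both of its signals reached the median of their array. The median ratio of the 18 hybridization controls, Akita over WT, was 1.91, close to the limit of 2-fold used for counts. The ratios were not corrected for it. The 3′ over 5′ control ratio, by which RNA quality is judged, was 3.99 on the Akita array against 3.54 on the WT array for Actb, and 1.76 against 1.30 for Gapdh. With 1 array per condition there was no replicate error, and no difference was tested. The only spread at hand was that between probe sets of the same gene, which is technical. Its SD was 1.17-fold at mean signals of 1024 to 4096, 1.26-fold at 256 to 1024, 1.53-fold at 64 to 256 and 2.90-fold at 16 to 64.

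Of the 20 annexin probe sets, in 13 both signals reached the array medians, in 2 only the signal of the Akita recipient and in 5 neither. Of the 15 measured probe sets, 3 were over 2-fold higher in the Akita graft (20%, against 9.84% of all 25080 measured probe sets) and 1 was over 2-fold lower (6.67%, against 6.73%). Of all probe sets, 2467 were thus higher and 1688 lower, and with the arrays centred on their medians these were 2087 and 2168, while the annexin counts stayed at 3 and 1. For 2 of the 3 higher ones, both of Anxa6, only the signal of the Akita recipient reached its median, so that they could pass the filter only by being higher. Among the 13 in which both signals reached the medians, 1 was over 2-fold higher and 1 over 2-fold lower, against 3.55% and 1.83% of all 19958 such probe sets. The median log2 ratio of Akita over WT was 0.12 for the 15 measured annexin probe sets and -0.02 for all measured probe sets. Most annexin probe sets thus had similar signals in both grafts, with Anxa1 above and Anxa13 below.

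**Figure D1:**
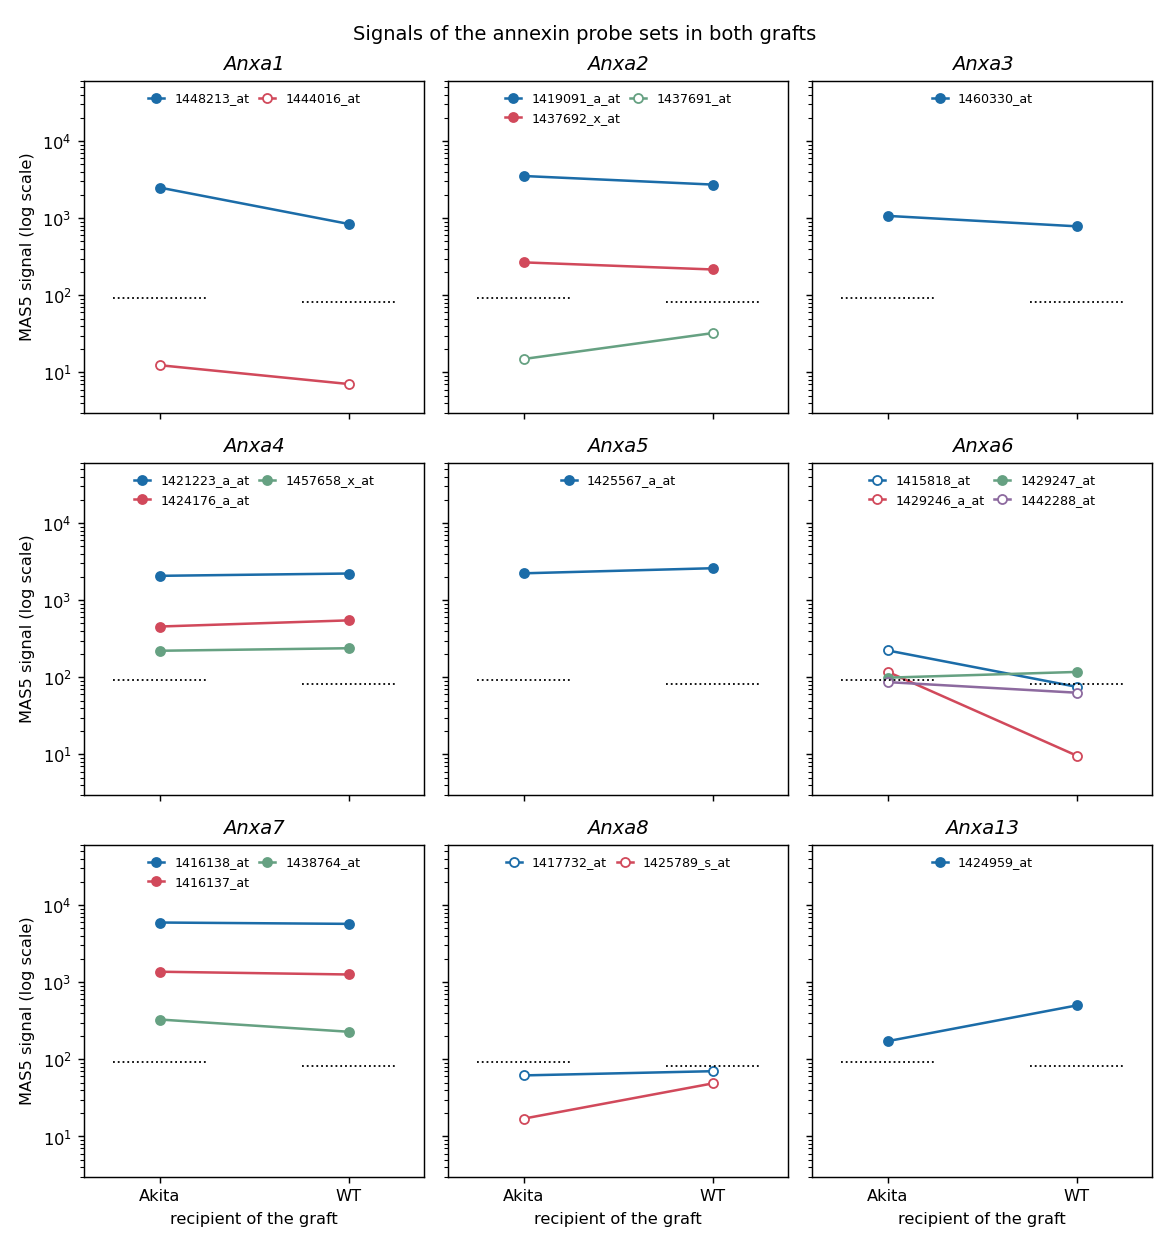
MAS5 signal (log scale) of each annexin probe set in the graft of the Akita recipient (left) and of the WT recipient (right), 1 panel per gene, 1 array per condition. Dotted lines are the array medians, and points are filled where both signals of the probe set reached them. The lines of Anxa2, Anxa3, Anxa4, Anxa5 and Anxa7 are nearly level above the medians, while Anxa1 (2491 against 841) and Anxa13 (172 against 500.3) are not.

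Anxa1, which limits the recruitment of neutrophils through formyl peptide receptors, read 2491 in the Akita graft, against 841 in the WT graft. This was 2.96-fold higher in the Akita graft (log2 ratio 1.57). Among all probe sets with a mean signal of 1024 to 4096, 2.03% were over 2-fold higher. The other probe set of Anxa1 had signals of 12.4 and 7.07 in the Akita and the WT recipient, both below the medians, and gives no fold. The difference in Anxa1 therefore rests on 1 probe set.

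Anxa2, the partner of S100a10, had signals of 3522 against 2726 on its brightest probe set, 1.29-fold higher in the Akita graft. On a further probe set it had 267 against 216, or 1.24-fold. Both lay on the same side, and neither was over 2-fold. The remaining one, at 14.9 in the Akita recipient against 32.4 in the WT recipient, was below both medians and had a ratio in the other direction.

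Anxa3, known from neutrophils and vessels, read 1070 in the Akita graft and 784 in the WT graft (1.37-fold higher). It had 1 probe set. Anxa5, whose binding to phosphatidylserine is used to stain apoptotic cells, also had 1 probe set, with 2232 in the Akita recipient against 2597 in the WT recipient, 1.16-fold lower. The 2 ratios lay on opposite sides of 1, and both were within 2-fold.

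Anxa4, an annexin of epithelia, was on the lower side on all 3 of its probe sets. They had signals of 2070, 456 and 221 in the Akita graft, against 2217, 548 and 238 in the WT graft. The log2 ratios were -0.10, -0.26 and -0.11, no larger than the spread between probe sets at such signals. Anxa7, named synexin for its aggregation of secretory granules, was on the higher side on all 3 of its probe sets as deposited, but its brightest was on the lower side with median centring (log2 ratio -0.08). Their signals were 5942, 1368 and 328 in the Akita recipient, against 5709, 1259 and 228 in the WT recipient. These were ratios of 1.04, 1.09 and 1.44, the last on the dimmest of the 3.

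Anxa13, which is known from epithelial cells of intestine and kidney, read 172 in the Akita graft, against 500.3 in the WT graft. It was 2.90-fold lower in the Akita graft (log2 ratio -1.54). Of all probe sets with a mean signal of 256 to 1024, 2.14% were over 2-fold lower. Anxa13 was the 1 annexin over 2-fold lower with both signals reaching the medians, and it too had 1 probe set.

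The 4 probe sets of Anxa6, a large annexin with a duplicated core that is found on endosomes and the plasma membrane, did not give 1 direction. The brightest read 223 in the Akita graft and 75.2 in the WT graft, which was below the median of its array, and the difference was at least 2.69-fold with the WT signal raised to that median. Another had 118 against 9.63, at least 1.42-fold on the same basis. The third, annotated with the same cDNA accession as the second, had 99.0 in the Akita recipient against 117 in the WT recipient, 1.19-fold lower, and the fourth had 86.6 against 63.1, both below the medians. Anxa6 was thus higher on its brightest probe set, and lower on the 1 probe set in which both signals reached the medians.

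Anxa8, an annexin of epithelia with anticoagulant activity in vitro, was below the medians on both of its probe sets. They had signals of 61.9 and 17.0 in the Akita recipient, against 70.2 and 48.8 in the WT recipient, and no fold is given. Of the other annexins on the array, Anxa10 was also below both medians (1.96 in the Akita recipient against 3.56 in the WT recipient). Anxa9 had 18.1 against 93.5, so that only the WT signal reached its median, and with the Akita signal raised to the median the WT signal was 1.02 times it. These genes could not be compared at these signals.

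**Figure D2:**
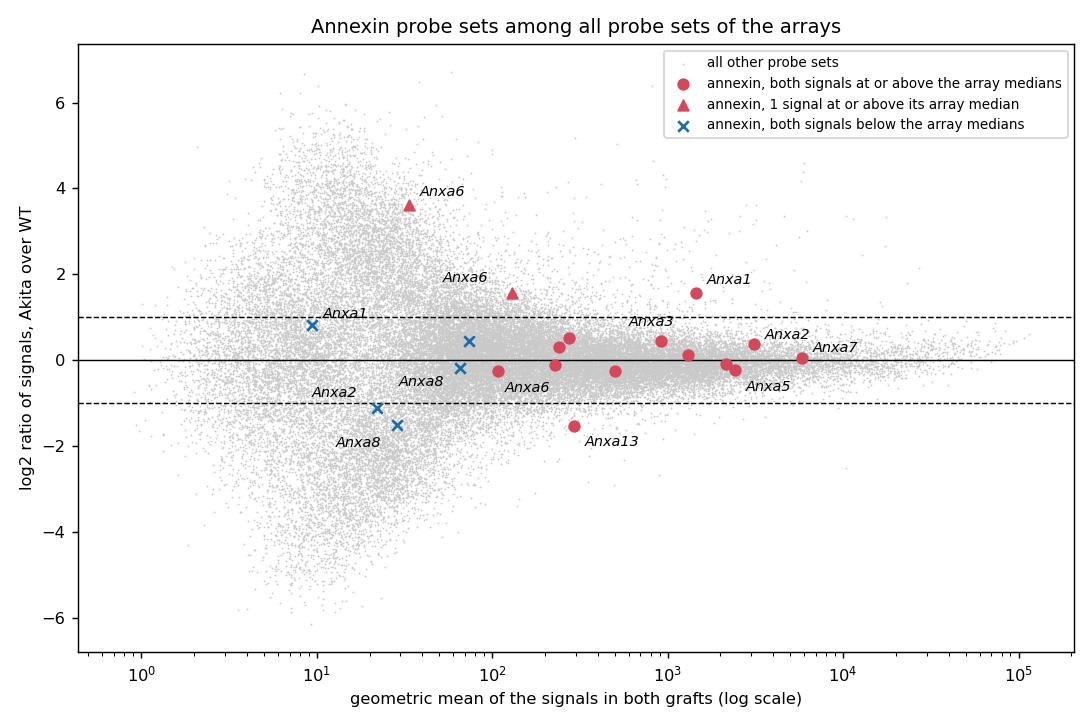
Log2 ratio of the signals, Akita over WT, against the geometric mean of both signals (log scale) for all probe sets (grey) and the 20 annexin probe sets (in color). Dashed lines mark 2-fold. The ratios of all probe sets fan out at low signals, where the annexin points marked x lie, and Anxa1 (1.57) and Anxa13 (-1.54) lie outside the dashed lines at higher signals.

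By gene, with the brightest probe set for each, 8 of the 9 annexins were measured. Anxa1 and Anxa6 were over 2-fold higher in the Akita graft, Anxa13 was over 2-fold lower, and 5 were within 2-fold. The background was 7.56% over 2-fold higher and 5.54% over 2-fold lower among all 12538 measured genes. The brightest probe set of Anxa6 had passed only through its Akita signal. Among the 7 annexins with both signals reaching the medians, 1 was higher and 1 lower. The share of all genes was not counted under this stricter filter. Of all probe sets that passed it, 3.55% were higher and 1.83% lower. The median log2 ratio was 0.21 for the 8 annexins and -0.06 for all measured genes, and 0.06 and -0.06 among those with both signals reaching the medians.

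The partners of annexins were counted from lists, with the brightest probe set of each gene. For all lists, the background is that of all measured genes, 7.56% over 2-fold higher and 5.54% over 2-fold lower. Of the S100 proteins that bind annexins, 3 of 4 on the array were measured, and 2 were over 2-fold higher and 0 lower. S100a4 had 2598 in the Akita graft against 354 in the WT graft (7.34-fold), and S100a6 had 2616 against 1017 (2.57-fold). S100a10, the partner of Anxa2, had 16201 against 10268 on its brightest probe set (1.58-fold), and on the other 2 probe sets it was 2.02-fold and 2.86-fold higher. All 3 ratios of S100a10 were above those of Anxa2.

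Fpr2, the formyl peptide receptor through which Anxa1 acts, was the 1 gene on the list of its receptors that could be named on the array. It read 497 in the Akita graft, against 94.9 in the WT graft (5.24-fold higher). The WT signal was just above the median of its array, 82.9. Fpr2 and Anxa1, the receptor and its ligand, were thus both over 2-fold higher.

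Of 6 measured genes of the plasminogen system, in which Anxa2 takes part, 2 were over 2-fold higher and 0 lower (median log2 ratio 0.29). Serpinb2, an inhibitor of plasminogen activators, had 15163 in the Akita graft against 2089 in the WT graft (7.26-fold), and Plaur, the urokinase receptor, had 1240 against 514 (2.41-fold). Plau, urokinase itself, had 2832 against 1834 (1.54-fold), and Plat, the tissue-type activator, 1179 against 1571. Serpinf2, which inhibits plasmin, had 4443 against 4886. The receptor Plgrkt (434 in the Akita recipient, 449 in the WT recipient) was nearly equal. The 2 genes over 2-fold were thus an inhibitor and a receptor.

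Calcium-binding partners of Anxa7 and Anxa11 were all within 2-fold. Sri, sorcin, which binds Anxa7, had 3047 in the Akita graft against 2845 in the WT graft, and Pdcd6, which binds Anxa11, had 4760 against 4719. Pef1, a relative of Pdcd6, had 1208 against 961. Like Anxa7 itself, these 3 genes had similar signals in both grafts.

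Among 10 measured genes that recognize phosphatidylserine, the lipid bound by Anxa5, 2 were over 2-fold higher and 0 lower (median log2 ratio 0.13). In 8 of them both signals reached the medians, and 1 of these was higher. Cd300lf, a receptor of myeloid cells, had 564 in the Akita recipient against 192 in the WT recipient (2.93-fold). Timd4, a receptor of resident macrophages, passed only through its Akita signal, with 208 against 4.95, at least 2.51-fold with the WT signal raised to its median. Havcr1, the receptor known as Kim-1 of injured kidney tubules, had 1388 in the Akita recipient against 2352 in the WT recipient (1.69-fold lower), and Gas6, which bridges dying cells to receptor kinases, had 3949 against 7898, just within the limit and past it with median centring (log2 ratio -1.14). Pros1, another bridging protein, had 539 against 295 (1.83-fold), and the receptor kinase Mertk was nearly equal, at 1497 against 1521. The list thus held genes on both sides.

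Anxa1 is known to respond to glucocorticoids in some cells. Of 7 measured genes of that response, 1 was over 2-fold higher and 0 lower (median log2 ratio 0.24). Zbtb16, a transcription factor, had 748 in the Akita graft against 188 in the WT graft (3.97-fold). Dusp1, a phosphatase, had 7347 against 3962 (1.85-fold). Tsc22d3, which encodes GILZ, had 2135 against 2525 on its brightest probe set. Its other probe sets were on the higher side, at 875 against 746, 468 against 246 and 105 against 76.1. In the last of these the WT signal was below its median. Fkbp5, a chaperone of the receptor, had 6238 against 4354 (1.43-fold). Sgk1, a kinase, had 5271 in the Akita recipient against 10292 in the WT recipient (1.95-fold lower), and passed the limit with median centring (log2 ratio -1.11).

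Copines and ferlins, other proteins that bind membranes with calcium, were mostly within 2-fold. Of 8 measured, 0 were over 2-fold higher and 1 was over 2-fold lower (median log2 ratio -0.41). This was Cpne2, with 22.4 in the Akita graft, below the median, against 108 in the WT graft, and the WT signal was 1.18 times the Akita median. Cpne3 had 2401 in the Akita graft against 2435 in the WT graft, and Cpne1 had 1812 against 1459. Cpne4 (402 against 658) and Dysf, dysferlin (92.7 against 156), were on the lower side.

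**Figure D3:**
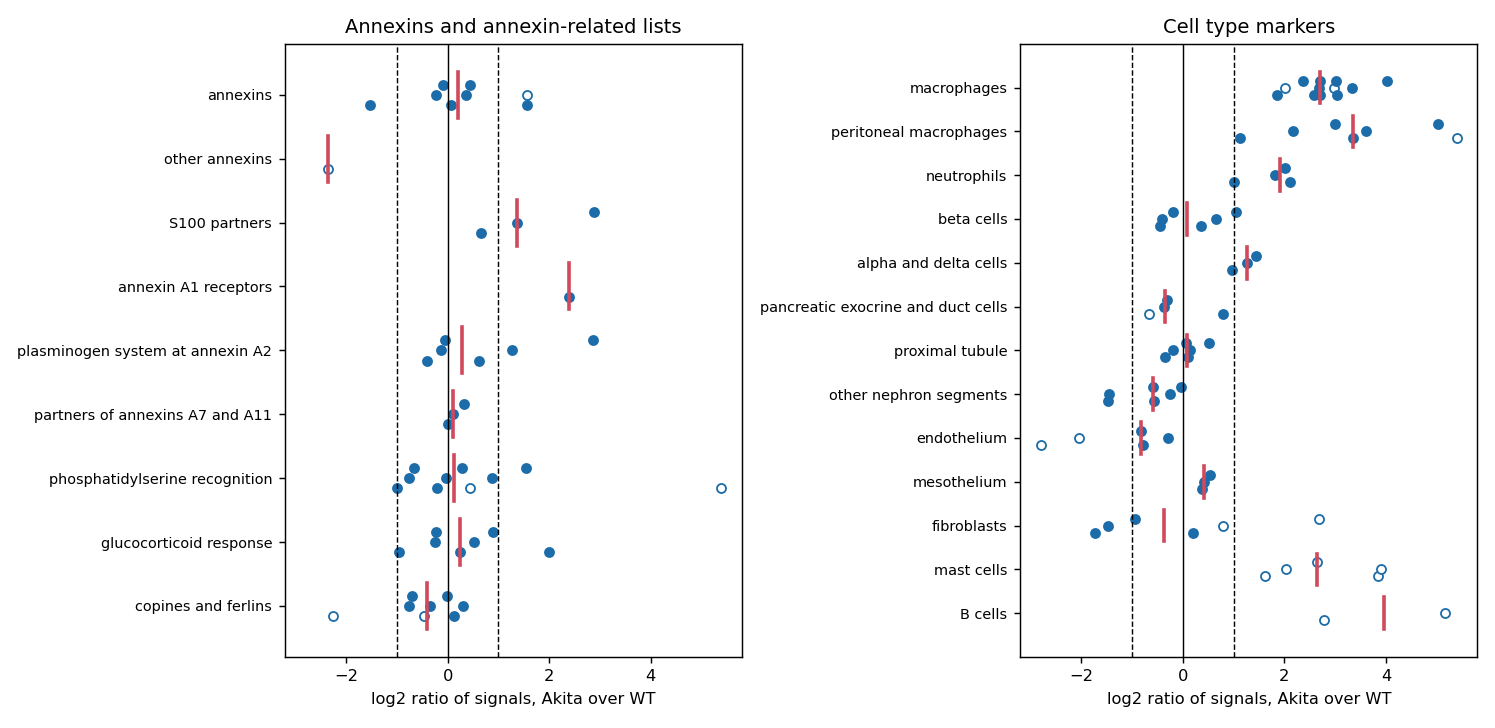
Log2 ratio of the signals, Akita over WT, for the measured genes of the annexins and of the lists related to them (left) and for markers of cell types (right), 1 point per gene. Points are filled where both signals reached the array medians and open where 1 did, with list medians in red and dashed lines at 2-fold. The annexin median (0.21) lies near 0, and the medians of macrophage (2.70) and neutrophil markers (1.91) lie to the right of it.

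Markers of cell types were counted in the same way. All 12 macrophage markers were over 2-fold higher in the Akita graft (median log2 ratio 2.70), and their summed signal was 98679 in the Akita recipient against 12409 in the WT recipient. The 4 measured neutrophil markers were also over 2-fold higher, with sums of 17217 and 4393 over the 5 on the array in the Akita and the WT recipient. No signal of these markers was 0, while Cxcr2, a receptor of neutrophils, was below both medians. The ratio of Anxa1 was 2.96, and the macrophage median was 6.49-fold. The part of these cells in the values of Anxa1, Anxa6, Fpr2 and the S100 genes was not tested.

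Beta cell markers, with 6 of 6 measured, had a median log2 ratio of 0.09, with 1 over 2-fold higher and 0 lower, and summed signals of 180504 in the Akita recipient and 136292 in the WT recipient. The 6 markers of the proximal tubule were within 2-fold, with sums of 191746 and 157948. Of 6 markers of other nephron segments, 2 were over 2-fold lower in the Akita graft, with sums of 40772 in the Akita recipient against 53407 in the WT recipient. These 2 were Atp6v1b1, a proton pump subunit of intercalated cells, at 501 against 1385, and Slc12a1, a salt carrier of the thick ascending limb, at 1103 against 3035. The part of such tubule cells in the value of Anxa13 was not tested, and fewer cells of a type and less RNA per cell cannot be told apart in these samples. Of the other lists, all 7 genes of peritoneal macrophages and 2 of 3 genes of alpha and delta cells were over 2-fold higher. Icam2 of the peritoneal list (2.17-fold), Mmp8 of the neutrophil list (2.02-fold) and Slc30a8 of the beta cell list (2.07-fold) were just past the limit. Marker lists were not counted under median centring. The 5 measured mast cell genes and 2 measured B cell genes reached the median in the Akita graft alone, and with the WT signals raised to the median 2 of the 5 and both of the 2 were over 2-fold higher. With low signals raised in the same way, 1 of 5 measured endothelial genes was over 2-fold lower. Of 6 fibroblast genes, 0 were over 2-fold higher and 2 lower with low signals raised. As deposited 1 was higher, Lum, with 116 in the Akita graft against 18.1 in the WT graft, which was below its median. The 3 measured genes of mesothelium, of 6 on the array, were within 2-fold. So were the 4 measured genes of pancreatic exocrine and duct cells, of 5 on the array. The other genes on these last lists were below both medians and could not be compared.

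Among the annexins, other ways of processing changed the side of the 2-fold limit for Anxa6, Anxa13 and Anxa2. The log2 ratio of Anxa1 was between 1.19 and 1.62 under 9 alternatives. That of Anxa13 was between -1.68 and -0.32, the value nearest to 0 with a floor at the 75th percentile, which exceeds the Akita signal of Anxa13. Anxa3 had values between 0.31 and 0.50 and Anxa5 between -0.36 and -0.18. Anxa7 was higher under 8 of 9 alternatives and lower with median centring (-0.08), so that no direction is given for it.

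**Figure D4:**
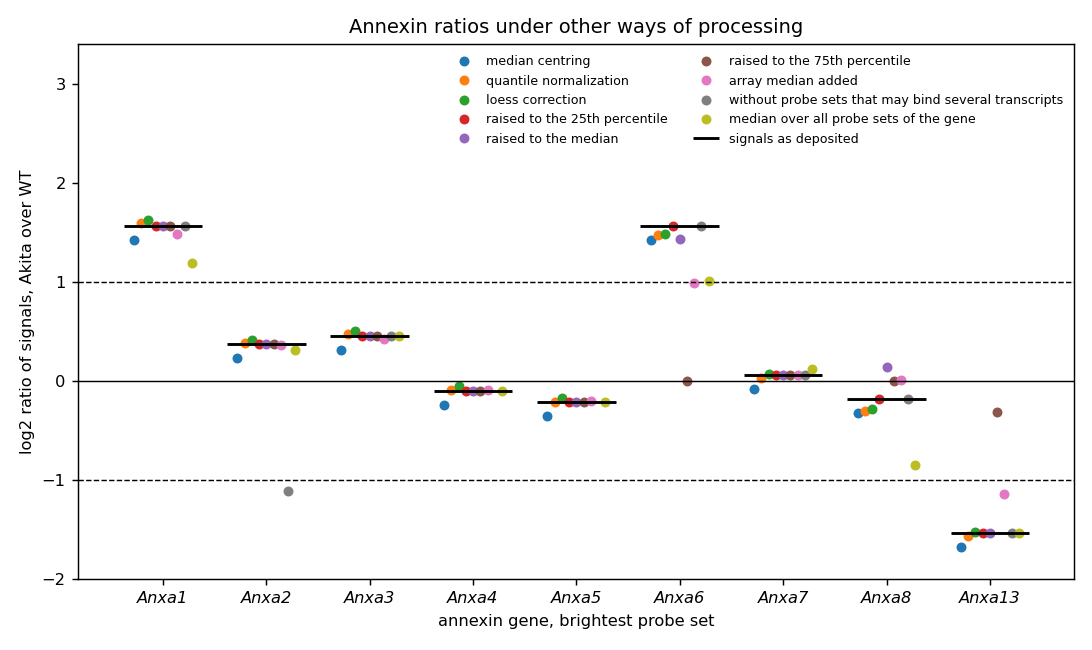
Log2 ratio of the signals, Akita over WT, of the brightest probe set of each annexin gene, with the signals as deposited (black bars) and under other ways of processing (points). Dashed lines mark 2-fold. The points of Anxa1 stay between 1.19 and 1.62, whereas those of Anxa6 reach -0.0070.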

How the data were processed

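Total RNA of 1 islet graft sample per condition was measured on 1 MOE430 2.0 array each. The authors deposited MAS5 intensity values, linear and not logged, in 1 table. The sources used here give no MAS5 version or settings, and the Subio Platform was named for the analysis. The columns were matched to the conditions by their labels. Of 45101 probe sets, 64 were controls. Of the others, 34945 carried 1 gene symbol, 932 several and 9160 none in the platform annotation, and only the first were named. All 9 annexins found were matched by gene identifier to RefSeq (GRCm38.p6). The promoter windows were picked by gene symbol for the 10 listed annexins, and 7 of these, Anxa11 among them, had a window.

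Ratios of Akita over WT were computed without further scaling, and over 2-fold was the limit for counts. A fold with 1 signal below the median of its array is given as a bound, with that signal raised to the median. For genes, the brightest probe set, by its mean log2 signal, was taken. The members and lists were chosen with earlier results of these data known. The text names every annexin, and from each list up to 4 measured genes with the largest ratios and up to 2 with the highest signals. Anxa10, Plgrkt, Havcr1, Tsc22d3, Cxcr2, Atp6v1b1, Slc12a1, Icam2, Mmp8, Slc30a8 and Lum were added after their values were seen. With 1 array per condition no test was made, and the number of arrays limits the precision. The counting of calls was tested on simulated data, only for probe sets with both signals reaching the medians. The simulated noise was the technical spread between probe sets, so it does not bear on replicate error.

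Other ways of processing were quantile normalization, median centring, loess (span 0.3, 3 iterations), low signals raised to the 25th, 50th or 75th percentile, the array median added, stricter or no filters, limits of 1.5-fold, 3-fold and 5-fold, probe sets with names ending in _s_at, _x_at or _a_at left out, and the median ratio over a gene's probe sets. The tools were pandas 2.3.3, numpy 2.4.6, statsmodels 0.14.6, scipy 1.17.1 and matplotlib 3.10.9 in Python 3.11.15.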

Additional observations from a re-analysis of the deposited data

How the results depend on the processing

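Of 169 values under 14 alternatives, 127 stayed within 1.5 times a count or within the spread between probe sets of a gene. Median centring took the median log2 ratio of all measured probe sets to -0.16, against -0.02 as deposited. The median of the annexin probe sets was between -0.02 and 0.28 under all 10 alternatives that could change it. With signals raised to the 75th percentile, Anxa6 had a log2 ratio of -0.0070, against 1.57 as deposited, and Anxa13 had -0.32. Anxa13 had -1.14 with the array median added. Without probe sets that may bind several transcripts, Anxa2 had -1.12, on a probe set below both medians. The median over all probe sets gave 1.19 for Anxa1, which includes a probe set below both medians. It gave -0.85 for Anxa8, whose probe sets were all below both medians, so that this value is not a measured difference.

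Of the annexin probe sets, 3 were over 2-fold higher and 1 lower as deposited. With signals raised to the 75th percentile there were 1 and 0, the higher one of Anxa1. At limits of 3-fold and 5-fold there were also 1 and 0, but the higher one was a different probe set. It was the Anxa6 probe set with 118 in the Akita graft against 9.63 in the WT graft. With the WT signal raised to its median it was at least 1.42-fold. Anxa1, at 2.96-fold, did not pass these limits. With both signals required to reach the medians, 1 of 13 was higher (7.69%, against 3.55% of all such probe sets). With no filter, 3 of 20 were lower (15%), against 6900 of all 45037 probe sets. Those added without the filter, of Anxa2 and Anxa8, were below both medians. Of all probe sets, 2467 were higher and 1688 lower as deposited. These counts were 2087 and 2168 with median centring, 1106 and 516 with signals raised to the median, 247 and 71 with the 75th percentile, 1104 and 266 with the array median added, 708 and 366 with both signals required to reach the medians, 8101 and 6900 with no filter, 4395 and 3805 at 1.5-fold, 1344 and 871 at 3-fold, and 779 and 497 at 5-fold. Of the measured genes on the lists related to annexins, 8 were higher and 2 lower as deposited. Among all measured genes, 7.56% were higher and 5.54% lower. The lower ones, Anxa9 and Cpne2, passed the filter only through the WT signal, and Timd4, a higher one, only through the Akita signal. The higher ones were 4 with the 75th percentile, 5 at 3-fold and 4 at 5-fold. The lower ones were 4 with median centring, 0 with signals raised to the median or the 75th percentile, with the array median added or with both signals required to reach the medians, 5 with no filter, 8 at 1.5-fold, 1 at 5-fold and 5 with the median over all probe sets. Counts fall at stricter limits and filters by construction, and the cause was not tested for the other values.

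No paired analysis was possible because each condition had 1 array, and for the same reason no replicate was left out.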
